A study of Mus musculus with 12 samples.

Results

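The genes examined here encode the proteins of the cytosolic ribosome, and they were read in whole mouse kidneys that lacked, carried 1 copy of, or were wild type for Mut (now Mmut), which encodes methylmalonyl-CoA mutase, an enzyme of the mitochondria. A gene was taken when a probe set carried its symbol alone and the symbol was Rpsa, Rplp0, Rplp1 or Rplp2, or began with Rpl or Rps followed by a digit. Symbols with -ps and the Rps6k kinases were dropped, and each gene was read by the probe set that was brightest on average over the 12 arrays. The probe set of a gene was thus selected on its mean signal, so the brightness of a member is a description. The rule found 63 genes among the 19934 genes tested, 38 named for the large subunit and 25 for the small one. Of these, 54 are ordinary ribosomal proteins, 33 large and 21 small. The other 9 are 7 paralogues by name (Rpl10l, Rpl32l, Rpl39l, Rpl3l, Rpl7l1, Rps27l and Rps4l, which RefSeq lists as a transcribed pseudogene), the binding protein gene Rps19bp1 and the retrogene Rps23rg1. The split into 54 and 9 was made after values had been seen.

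Each of 12 female C57BL/6 mice gave 1 array of whole-kidney RNA, and every mouse had been fed the HP (high protein) diet for 2 months. The groups were 4 Mut-/- mice carrying the transgene TgINS-Alb-Mut, 4 Mut+/- heterozygotes and 4 Mut+/+ wild types. The labels give the transgene to the Mut-/- mice only, so its effects and those of enzyme loss cannot be told apart. No ages are given in the labels used here. Values are log2 signals after RMA, a normalisation that equalises the arrays, so a difference of 1 is a doubling, and levels of different probe sets cannot be set against each other. In bulk tissue, fewer cells of a type and less RNA per cell cannot be told apart.

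A ribosome has a small subunit that reads the mRNA and a large subunit that joins amino acids, and most of its proteins are present in a single copy in each ribosome. Vertebrate ribosomal protein mRNAs typically start with a C and a short run of pyrimidines, the 5′ terminal oligopyrimidine (TOP) motif, through which mTORC1 and LARP1 govern their translation and stability. In the kidney, proximal tubule cells are rich in mitochondria and are a site of the renal disease of methylmalonic acidemia. An array reads the amount of RNA and not its translation.

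The starts of these genes were searched for such runs because they are the shared control element of the family. RefSeq (build GRCm38.p6) gave the sequence around the start for 51 of the 63 genes. A run was a C followed by at least 7 further C or T, on the gene's own strand and within 50 bases of the annotated start. It occurred in 39 of the 51 genes (76.5%) and in 8645 of the 27025 genes with such a sequence (32.0%). The E-box CACGTG, a palindrome searched over the 300 bases, was found in 5 of 51 (9.80%), against 8.09% of all genes. Capitals below mark the run closest to the start, in 30 bases written 5′ to 3′ on the strand of the gene. The first 4 genes belong to the strongest rises described below and hold a run, the next 3 hold one and missed the adjusted threshold in Mut-/- over Mut+/+, and the last 3 rose strongly and hold none in this window.
Rps12, chr10:23787182-23787211, minus strand: ccaccgccggCCTTTTCCCCTgccgccgcc
Rpl5, chr5:107900498-107900527, plus strand: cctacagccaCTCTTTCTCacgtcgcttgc
Rpl36a, chrX:134585671-134585700, plus strand: gcggctctagCCTCTCTCTTTCCgagctgc
Rpl26, chr11:68901579-68901608, plus strand: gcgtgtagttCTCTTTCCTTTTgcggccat
Rps6, chr4:86857349-86857378, minus strand: ggaagtcgggCCTCTTTTTCgtgacgcctc
Rpl28, chr7:4792953-4792982, plus strand: cctctcgtgtCTCTCTTTCCgtctccggcc
Rplp2, chr7:141447637-141447666, plus strand: gcgtcagcgtCTTCCTTTCgccgccggacg
Rps3a1, chr3:86142654-86142683, minus strand: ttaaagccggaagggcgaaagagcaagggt
Rpsa, chr9:120127751-120127780, plus strand: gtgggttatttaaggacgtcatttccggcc
Rpl24, chr16:55966260-55966289, plus strand: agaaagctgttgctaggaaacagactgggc
Runs stood in 27 of 36 genes that were higher in Mut-/- than in Mut+/+ kidneys (75.0%) and in all 7 genes with a sequence among the ordinary members that missed the adjusted threshold in this comparison (100%). The paralogues had one in 4 of 6 (66.7%). A match is a description, and the annotated start need not be the one used in kidney. Positions count the annotated first base as 1 and the base before it as -1. The printed runs begin at 9 in Rps12, -20 in Rpl5, 28 in Rpl36a and 24 in Rpl26. They begin at -1 in Rps6, -2 in Rpl28 and -4 in Rplp2. Whether a run lies at the 5′ end of the mRNA, as a TOP motif does, was not determined.

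Ribosomal protein RNA was higher in Mut-/- kidneys across both subunits. Of the 63 genes, 45 were higher in Mut-/- than in Mut+/+ kidneys and 0 were lower by limma at an adjusted p under 0.05, where 2.96% of all 19934 genes were higher and 6.69% lower. At an unadjusted p under 0.05, 51 members were higher, where 9.25% of all genes were, and 1 was lower, the retrogene Rps23rg1, where 15.2% of all genes were. The log2 fold change lay above 0 for 61 of 63 members (51.4% of all genes), and its median was 0.37 (1.29-fold), against 0.0044 over all genes. Members made up 7.61% of the 591 genes called higher and 0.316% of all genes tested. Among genes with a mean of at least 10, 7.71% were called higher, a share that includes the bright members themselves. The 4 Mut-/- arrays lay above all 4 Mut+/+ arrays for 48 members, or 76.2%, against 5.35% of all genes.

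Averaged over the 63 genes, the Mut-/- arrays stood at 10.65, 10.62, 10.67 and 10.54, the Mut+/- arrays at 10.37, 10.28, 10.34 and 10.34, and the Mut+/+ arrays at 10.31, 10.29, 10.21 and 10.19. The lowest Mut-/- array was above the highest array of either other genotype, while the Mut+/- and Mut+/+ arrays overlapped. The group means were 10.62 ± 0.06 in Mut-/-, 10.33 ± 0.03 in Mut+/- and 10.25 ± 0.06 in Mut+/+ kidneys (SD, n = 4 each). Of the 63 genes, 26 had their highest value on Mut-/- replicate 3, 18 on replicate 1, 13 on replicate 2 and 2 on replicate 4. The lowest value fell on Mut+/+ replicate 4 for 28 genes and on Mut+/+ replicate 3 for 20. Mut-/- replicate 3 stood apart from the other arrays over all genes and had the lowest array weight, 0.386. Without it 44 members were higher than in Mut+/+ kidneys, with a median of 0.35.

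**Figure D1:**
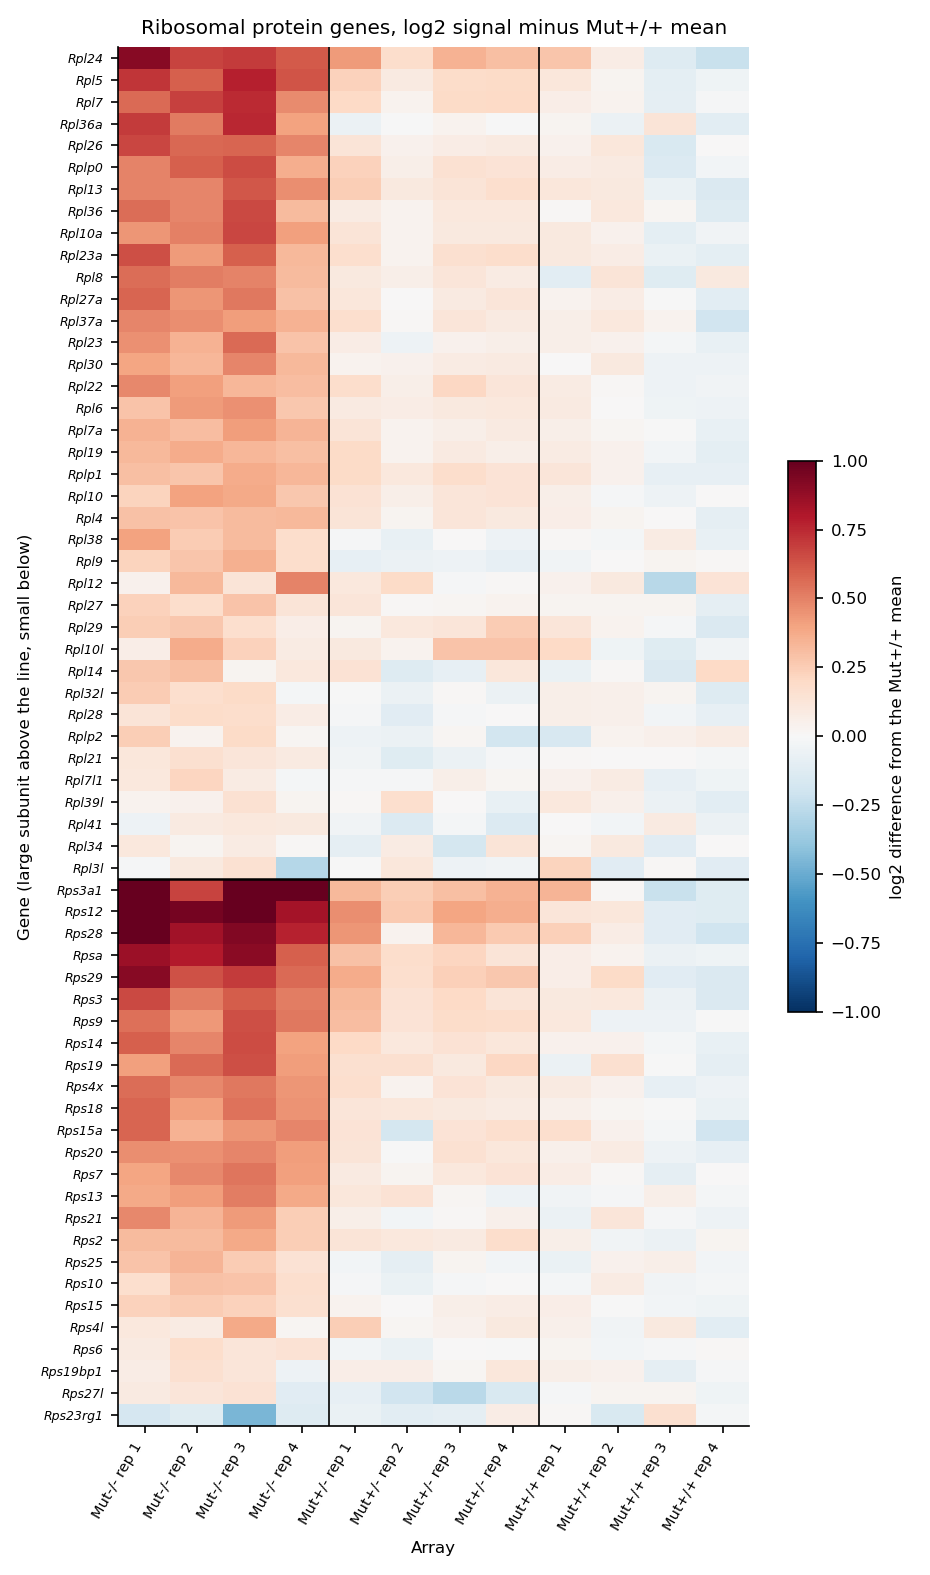
Each cell is the log2 signal of 1 ribosomal protein gene on 1 array minus the mean of the 4 Mut+/+ arrays, with genes ordered by subunit and change and arrays by genotype. Differences beyond 1 take the darkest colour. The 4 Mut-/- columns are red for most genes, and the genes at the foot of each block, among them Rpl34, Rpl41 and Rps27l, are pale.

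The target gene checked the genotypes. Mmut had 8.47, 8.33, 8.20 and 8.42 in Mut-/- kidneys, 9.93, 9.90, 9.87 and 9.97 in Mut+/- kidneys, and 10.47, 10.50, 10.56 and 10.60 in Mut+/+ kidneys. The 3 genotypes did not overlap, and the log2 fold change of Mut-/- over Mut+/+ was -2.18 (adjusted p = 1.4e-10). Which part of the transcript the probes read, and whether they read the transgene, was not determined. Correlations between arrays ran from 0.982 to 0.995, and array medians from 7.17 to 7.23.

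The 4 largest rises over Mut+/+ were those of small subunit genes. Rps12, a small subunit protein that in Drosophila takes part in cell competition, had 10.88, 10.77, 10.92 and 10.65 in Mut-/- kidneys, 10.28, 10.08, 10.21 and 10.18 in Mut+/- kidneys, and 9.93, 9.93, 9.70 and 9.70 in Mut+/+ kidneys. All 3 genotypes were apart, with Mut-/- highest and Mut+/+ lowest. Its level was 1.99-fold higher in Mut-/- than in Mut+/+ kidneys (log2 fold change 0.99, SE 0.08, adjusted p = 1.57e-05). Rps3a1, which lies near the mRNA exit on the small subunit, had 9.60, 9.10, 9.55 and 9.47 in Mut-/- kidneys, 8.75, 8.68, 8.73 and 8.78 in Mut+/- kidneys, and 8.77, 8.44, 8.20 and 8.31 in Mut+/+ kidneys. The Mut-/- arrays were above all others, and 1 Mut+/+ array reached the Mut+/- range. The rise over Mut+/+ was 1.002 on the log2 scale (2.00-fold, SE 0.12, adjusted p = 0.000341).

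Rps28, at the mRNA exit channel, had 11.48, 11.30, 11.38 and 11.23 in Mut-/- kidneys, 10.90, 10.49, 10.79 and 10.72 in Mut+/- kidneys, and 10.70, 10.53, 10.34 and 10.26 in Mut+/+ kidneys. Its Mut-/- arrays did not overlap the others, while Mut+/- and Mut+/+ did, and it was 1.86-fold higher in Mut-/- than in Mut+/+ kidneys (adjusted p = 0.000294). Rpsa, also known as the laminin receptor precursor and mutated in isolated congenital asplenia in humans, had 10.89, 10.82, 10.93 and 10.63 in Mut-/- kidneys, 10.32, 10.21, 10.24 and 10.16 in Mut+/- kidneys, and 10.09, 10.06, 9.97 and 9.99 in Mut+/+ kidneys. The 3 genotypes were again apart in the same order, and the Mut-/- level was 1.73-fold the Mut+/+ level (log2 fold change 0.79, adjusted p = 2.78e-05). Rps29, a zinc-binding protein of the small subunit head, had 10.82, 10.55, 10.61 and 10.48 in Mut-/- kidneys, 10.29, 10.08, 10.15 and 10.19 in Mut+/- kidneys, and 9.98, 10.11, 9.80 and 9.77 in Mut+/+ kidneys. It was 1.63-fold higher in Mut-/- than in Mut+/+ kidneys (adjusted p = 0.000446), with the Mut-/- arrays above all others.

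Rps3, which lines the mRNA entry and also has a role in DNA repair, had 10.94, 10.79, 10.89 and 10.79 in Mut-/- kidneys, 10.61, 10.42, 10.48 and 10.41 in Mut+/- kidneys, and 10.38, 10.38, 10.22 and 10.14 in Mut+/+ kidneys. Rps9, a neighbour at the mRNA entry, had 10.86, 10.74, 10.96 and 10.84 in Mut-/- kidneys, 10.62, 10.45, 10.49 and 10.49 in Mut+/- kidneys, and 10.42, 10.26, 10.26 and 10.31 in Mut+/+ kidneys. Both were apart in all 3 genotypes, with Mut+/- between the other two, and rose by 0.57 and 0.54 on the log2 scale over Mut+/+ (adjusted p = 0.000332 and 0.000229). Rps6, the substrate of S6 kinase below mTORC1 and the brightest probe set among the members, had 13.25, 13.34, 13.28 and 13.31 in Mut-/- kidneys, 13.13, 13.10, 13.17 and 13.16 in Mut+/- kidneys, and 13.19, 13.13, 13.15 and 13.18 in Mut+/+ kidneys. Its Mut-/- arrays were all above the others by a small margin, but the log2 fold change over Mut+/+ of 0.13 (95% interval 0.04 to 0.22) missed the threshold (adjusted p = 0.0645). In a separate fit over 23406 probe sets, 3 of the 8 sets of Rps6 were called higher, the brightest not among them (adjusted p = 0.0525). In the fit over genes, Rps6 was called when genes dimmer than 6 in every group were left out (adjusted p = 0.0443). Rps6 was the only one of the 21 ordinary small subunit genes not called in this comparison, and all 21 had their Mut-/- arrays above the Mut+/+ arrays. Of all genes, 2.96% were called higher and 5.35% had Mut-/- arrays above all Mut+/+ arrays. The 21 were set apart after values had been seen. Of all 25 genes named for the small subunit, 20 were called and 21 were apart.

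**Figure D2:**
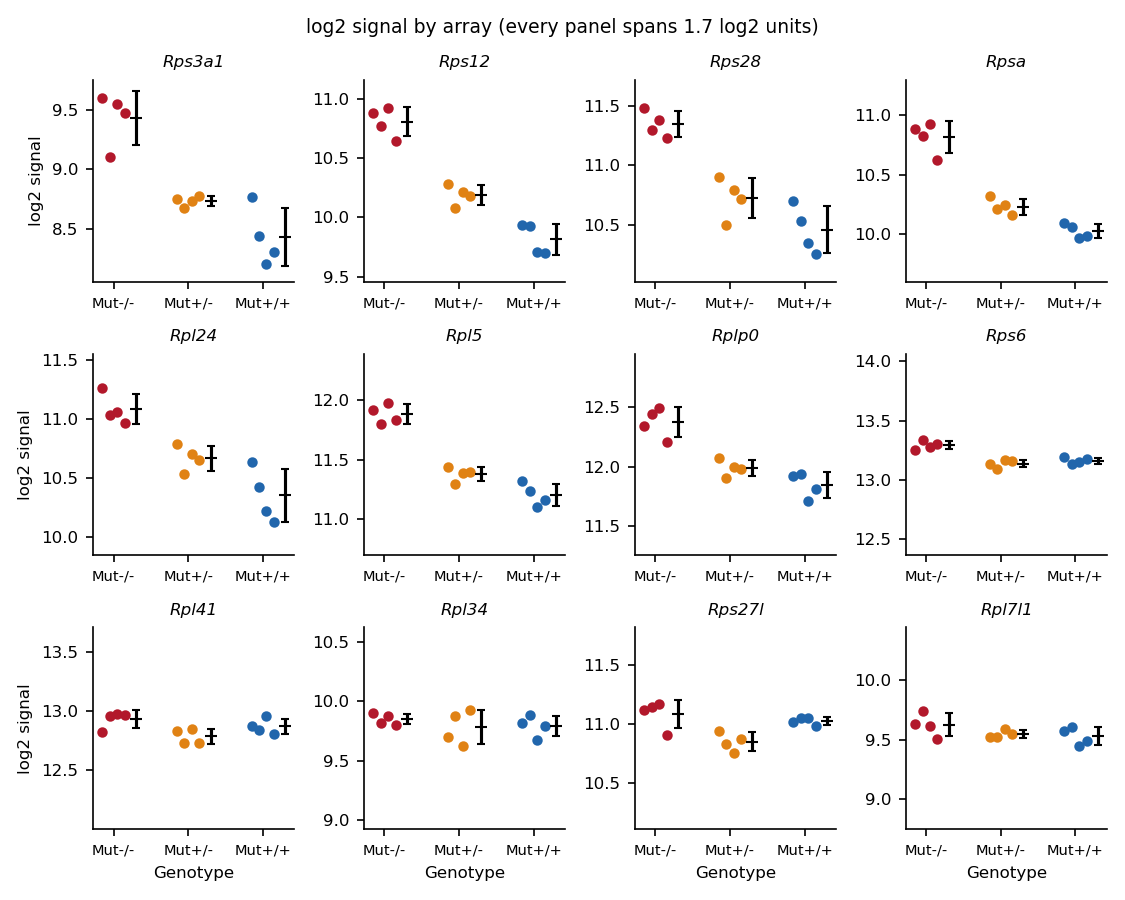
Log2 signal of 12 named genes on every array, with the mean and SD of each genotype (n = 4), in panels that all span 1.7 log2 units. Rps3a1, Rps12, Rps28, Rpsa, Rpl24, Rpl5 and Rplp0 have the Mut-/- points above all others, Rps6 does so by a small margin, and Rpl41, Rpl34, Rps27l and Rpl7l1 overlap.

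In the large subunit, 25 of 38 genes were higher in Mut-/- than in Mut+/+ kidneys and 0 lower, where 2.96% of all genes were higher and 6.69% lower. Rpl24, which bridges the subunits and is disrupted in the mouse Belly spot and tail mutant, had 11.26, 11.04, 11.06 and 10.97 in Mut-/- kidneys, 10.78, 10.53, 10.70 and 10.66 in Mut+/- kidneys, and 10.63, 10.43, 10.23 and 10.13 in Mut+/+ kidneys. The Mut-/- arrays were highest and the other genotypes overlapped. The rise over Mut+/+ was 1.65-fold (log2 fold change 0.73, SE 0.10, adjusted p = 0.000854). Rpl5, which carries 5S rRNA into the ribosome and with Rpl11 can bind Mdm2, had 11.92, 11.80, 11.98 and 11.83 in Mut-/- kidneys, 11.44, 11.29, 11.38 and 11.39 in Mut+/- kidneys, and 11.32, 11.23, 11.10 and 11.16 in Mut+/+ kidneys. It was 1.60-fold higher in Mut-/- than in Mut+/+ kidneys (SE 0.06 on the log2 scale, adjusted p = 3.47e-05), with no overlap between Mut-/- and the rest. Its partner Rpl11 has no probe set of its own here and is given with the mixed probe sets below.

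Rpl7, a large subunit protein, had 10.21, 10.32, 10.38 and 10.10 in Mut-/- kidneys, 9.84, 9.67, 9.83 and 9.83 in Mut+/- kidneys, and 9.70, 9.67, 9.55 and 9.62 in Mut+/+ kidneys. Mut+/- replicate 2 lay at the Mut+/+ level, and the Mut-/- arrays were above both groups (1.53-fold over Mut+/+, adjusted p = 0.000196). Rpl36a, which lies at the tRNA exit site, had 11.998, 11.82, 12.05 and 11.70 in Mut-/- kidneys, 11.24, 11.29, 11.33 and 11.29 in Mut+/- kidneys, and 11.33, 11.24, 11.43 and 11.20 in Mut+/+ kidneys. Here Mut+/- and Mut+/+ overlapped and Mut-/- was 1.51-fold higher than Mut+/+ (adjusted p = 0.000523). Rpl26, at the rim of the exit tunnel, had 9.83, 9.74, 9.75 and 9.65 in Mut-/- kidneys, 9.29, 9.21, 9.24 and 9.25 in Mut+/- kidneys, and 9.21, 9.28, 9.01 and 9.17 in Mut+/+ kidneys. The controls overlapped and Mut-/- was apart, 1.49-fold above Mut+/+ (adjusted p = 0.000163).

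The P stalk, which recruits the elongation factors, is built on Rplp0 with Rplp1 and Rplp2 attached. Rplp0 had 12.34, 12.44, 12.50 and 12.21 in Mut-/- kidneys, 12.07, 11.91, 11.996 and 11.99 in Mut+/- kidneys, and 11.92, 11.94, 11.71 and 11.82 in Mut+/+ kidneys. Mut-/- was above every other array and 1.44-fold over Mut+/+ (adjusted p = 0.000684). Rplp1 had 13.06, 13.04, 13.13 and 13.09 in Mut-/- kidneys, 12.95, 12.87, 12.94 and 12.90 in Mut+/- kidneys, and 12.88, 12.81, 12.68 and 12.67 in Mut+/+ kidneys. Its Mut-/- arrays were also highest, by 0.32 on the log2 scale over Mut+/+ (adjusted p = 0.00297). Rplp2 had 8.99, 8.78, 8.94 and 8.76 in Mut-/- kidneys, 8.69, 8.69, 8.77 and 8.56 in Mut+/- kidneys, and 8.58, 8.78, 8.79 and 8.82 in Mut+/+ kidneys. The Mut-/- arrays overlapped both other groups, and the log2 fold change over Mut+/+ was 0.12 (95% interval -0.03 to 0.27, adjusted p = 0.316).

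Other places on the ribosome gave counts of the same kind. Near the peptidyl transferase centre, 3 of 4 listed genes had a probe set of their own. These were Rpl4, Rpl8 and Rpl10, all higher in Mut-/- than in Mut+/+ kidneys, with a median log2 fold change of 0.32. At the exit tunnel and its rim 5 of 9 listed genes had one, and all 5 were higher (Rpl4, Rpl19, Rpl22, Rpl23a and Rpl26, median 0.38). The others were read only by sets with several symbols, in the fit over probe sets given below. There Rpl17, Rpl31 and Rpl35 were called higher and Rpl39 was not, at -0.01. On the decoding side 4 of 7 listed genes had a set of their own, and Rps2, Rps3, Rps15 and Rps28 were all higher (median 0.44). Of the 18 genes listed for human Diamond-Blackfan anaemia, a failure of red cell production from ribosomal protein loss, 9 were measured by a probe set of their own and all 9 were higher, by 0.21 to 0.89 on the log2 scale. Among these were Rps19 (1.42-fold) and Rps7 (1.37-fold). All of these counts stand against the same 2.96% of genes called higher.

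**Figure D3:**
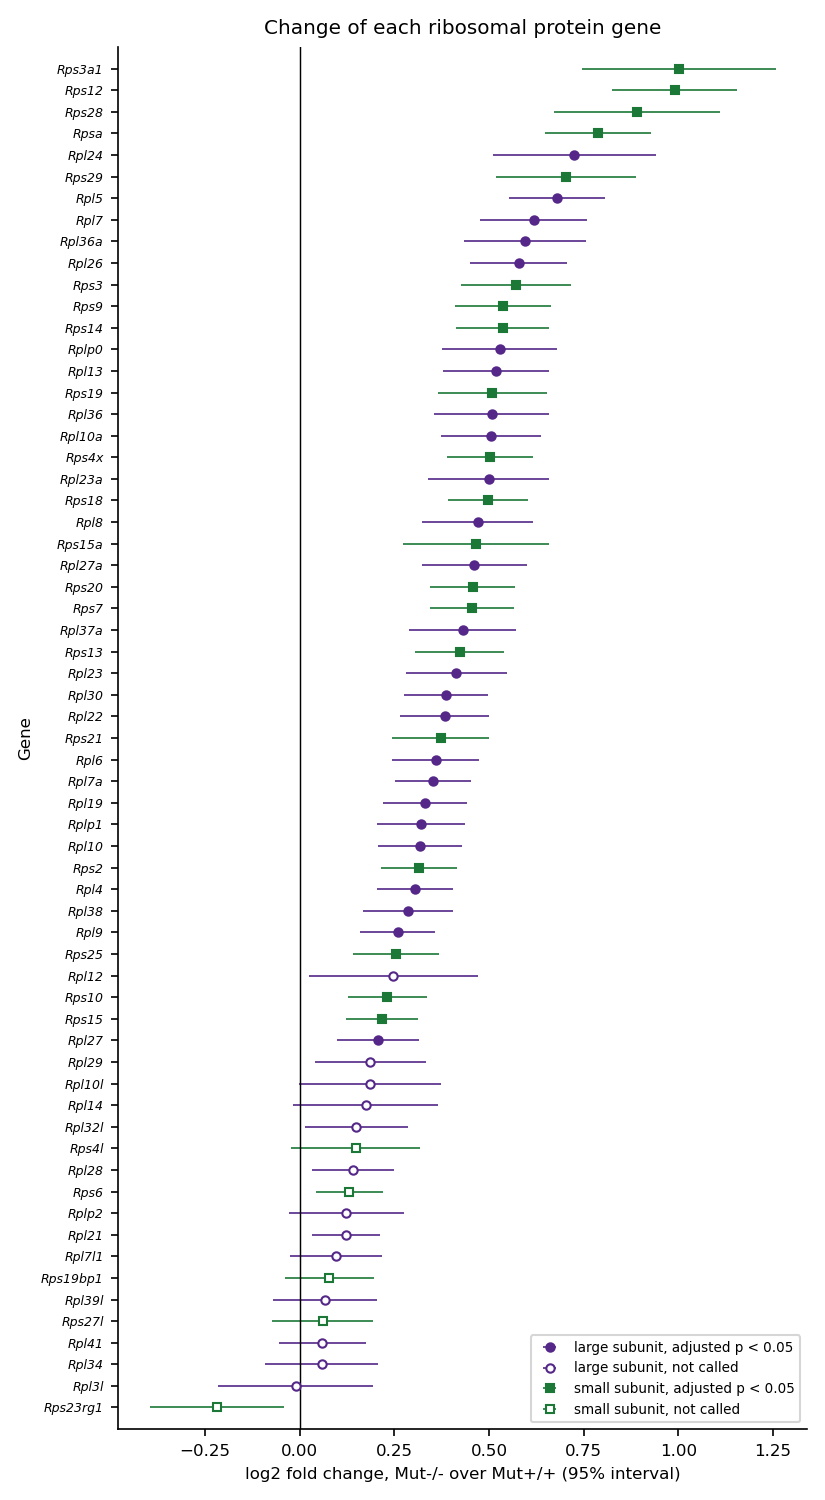
Log2 fold change of Mut-/- over Mut+/+ for each of the 63 genes with its 95% interval, filled where the adjusted p was under 0.05, circles for genes named Rpl and squares for genes named Rps. The values run from 1.002 for Rps3a1 to -0.22 for Rps23rg1, and 45 genes are filled, all to the right of 0.

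Among the 54 ordinary genes, 9 missed the adjusted threshold in Mut-/- over Mut+/+, although all 9 log2 fold changes lay above 0 and 5 had an unadjusted p under 0.05 (Rps6, Rpl12, Rpl21, Rpl28 and Rpl29). Of the 9, 8 are large subunit genes: Rpl12, Rpl14, Rpl21, Rpl28, Rpl29, Rpl34, Rpl41 and Rplp2. Rpl21 had 13.01, 13.06, 13.02 and 12.99 in Mut-/- kidneys, 12.86, 12.78, 12.84 and 12.89 in Mut+/- kidneys, and 12.91, 12.90, 12.90 and 12.88 in Mut+/+ kidneys. Rpl28 had 12.64, 12.70, 12.69 and 12.58 in Mut-/- kidneys, 12.50, 12.40, 12.50 and 12.51 in Mut+/- kidneys, and 12.57, 12.56, 12.48 and 12.43 in Mut+/+ kidneys. In both, all Mut-/- arrays were above the others, with log2 fold changes over Mut+/+ of 0.12 and 0.14 (adjusted p = 0.0885 and 0.0975). In the separate fit over probe sets, 7 of the 9 sets of Rpl21 were called higher, the brightest not among them. The mean of its probe sets was called too, at 0.17 (adjusted p = 0.0322). Rpl34 had 9.90, 9.82, 9.88 and 9.81 in Mut-/- kidneys, 9.70, 9.88, 9.62 and 9.93 in Mut+/- kidneys, and 9.82, 9.89, 9.68 and 9.79 in Mut+/+ kidneys, so that the 3 genotypes overlapped, and its 95% interval over Mut+/+ ran from -0.09 to 0.21. Rpl41, the smallest protein of the ribosome, had a log2 fold change of 0.06 over Mut+/+ with an interval from -0.06 to 0.18. Those upper bounds lie below the median of 0.43 of the 54 genes. Rpl12 was the dimmest ordinary member, at 6.39 ± 0.20 in Mut-/- and 6.14 ± 0.19 in Mut+/+ kidneys (SD, n = 4 each), with arrays that overlapped.

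The members were also read by brightness. In Mut-/- over Mut+/+, genes called higher were 4 of 7 ordinary members with a mean under 9, 31 of 33 between 9 and 12, and 10 of 14 at 12 or more. Their median log2 fold changes were 0.37, 0.50 and 0.27. Of all genes 2.96% were called higher, and 7.71% of those with a mean of at least 10. Across the 54 genes, which share arrays and are not independent, Spearman's rho between mean signal and log2 fold change was -0.304, and over all 63 members it was 0.05.

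The 7 paralogues by name were counted apart. In Mut-/- over Mut+/+, limma called 0 of 7 either way (1 at an unadjusted p under 0.05), where 2.96% of all genes were called higher and 6.69% lower. Of the 7 log2 fold changes 6 lay above 0, with a median of 0.09. Rps27l, a paralogue of Rps27 induced by p53 in human and mouse cells, had 11.12, 11.15, 11.17 and 10.91 in Mut-/- kidneys, 10.94, 10.83, 10.76 and 10.88 in Mut+/- kidneys, and 11.02, 11.05, 11.06 and 10.98 in Mut+/+ kidneys. Mut-/- overlapped both groups, while Mut+/- lay below Mut+/+ on every array. Its log2 fold change was 0.06 for Mut-/- over Mut+/+ and 0.23 for Mut-/- over Mut+/- (adjusted p = 0.611 and 0.0662). Rpl7l1 averaged 9.62 ± 0.10 in Mut-/-, 9.54 ± 0.03 in Mut+/- and 9.53 ± 0.08 in Mut+/+ kidneys (SD, n = 4 each). Rpl10l, known from testis, averaged 6.49 ± 0.14 in Mut-/-, 6.48 ± 0.13 in Mut+/- and 6.30 ± 0.14 in Mut+/+ kidneys. The heart and muscle paralogue Rpl3l and the testis paralogue Rpl39l were the dimmest members of all, with means over the 12 arrays of 5.69 and 4.60. Rpl32l and Rps4l had log2 fold changes of 0.15 and 0.15 over Mut+/+ (adjusted p = 0.165 and 0.277). In the separate fit over probe sets, the other set of Rps4l was called higher at 0.26 (adjusted p = 0.0287). In the fit over genes, Rpl32l was called without Mut-/- replicate 4 (adjusted p = 0.0398). Whether the paralogues' change differs from that of the 54 genes was not tested.

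The subunits were then set side by side. The median log2 fold change of Mut-/- over Mut+/+ was 0.33 for the 38 large subunit genes and 0.46 for the 25 small ones, a difference of -0.13 (large minus small). By name, 25 of 38 large and 20 of 25 small genes were called higher, where 2.96% of all genes were. Without the 9 paralogues and other genes, a split made after values had been seen, the medians were 0.36 and 0.50. The same calls were then 25 of 33 large and 20 of 21 small genes. On each array, the mean of the 33 large genes minus the mean of the 21 small genes was -0.04 ± 0.02 in Mut-/-, 0.05 ± 0.01 in Mut+/- and 0.11 ± 0.02 in Mut+/+ kidneys (SD, n = 4 each). It ran from -0.06 to -0.00 on the Mut-/- arrays, from 0.03 to 0.07 on the Mut+/- arrays and from 0.09 to 0.13 on the Mut+/+ arrays, so the genotypes did not overlap. The sign of this measure depends on the probe sets, and only its change between genotypes can be read. The difference between the subunits was not tested, since the genes had been chosen with results known.

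**Figure D4:**
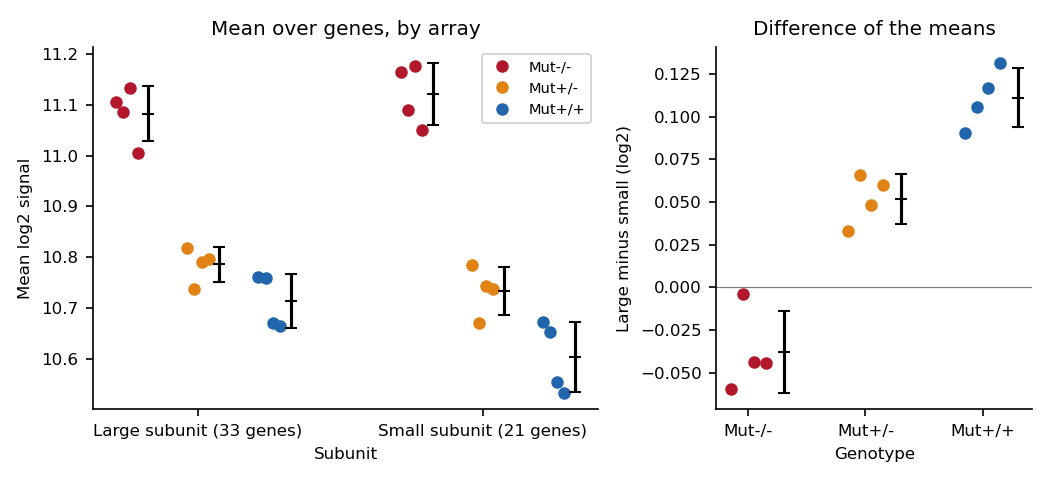
Left, the mean log2 signal over 33 large and 21 small subunit genes on each array by genotype, with the mean and SD (n = 4). Right, the difference of those means on each array: Mut-/- lies from -0.06 to -0.00, Mut+/- from 0.03 to 0.07 and Mut+/+ from 0.09 to 0.13.

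The Mut-/- kidneys were also set against heterozygotes. In Mut-/- over Mut+/- kidneys 41 of 63 genes were higher and 0 lower (limma, adjusted p under 0.05), where 1.07% of all genes were higher and 1.46% lower, and at an unadjusted p under 0.05, 52 members were higher (6.3% of all genes) and 0 lower (9.11%). The median log2 fold change was 0.32 (1.25-fold), against -0.0075 over all genes, and 61 of 63 values lay above 0 (46.6% of all genes). This comparison uses the same Mut-/- arrays as the one above, so the counts are not independent. The Mut-/- arrays were above all Mut+/- arrays for 48 genes (4.04% of all genes). They were below all Mut+/- arrays for 1 member, where 1126 of all 19934 genes were.

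Rps3a1, Rps12 and Rps28 were 1.62, 1.53 and 1.54-fold higher in Mut-/- than in Mut+/- kidneys (adjusted p = 0.00848, 0.00133 and 0.00715). Rpl36a rose 1.52-fold and Rpsa 1.50-fold (adjusted p = 0.00133 and 0.000901). Rpl5, Rpl26 and Rpl7 rose by 0.51, 0.50 and 0.46 on the log2 scale. Rpl36, a large subunit protein, averaged 11.25 ± 0.15 in Mut-/- and 10.82 ± 0.03 in Mut+/- kidneys (SD, n = 4 each), a rise of 0.43 (adjusted p = 0.00719). Rpl10a, part of the L1 stalk that moves spent tRNA out, averaged 11.96 ± 0.11 in Mut-/- and 11.55 ± 0.04 in Mut+/- kidneys (rise of 0.42, adjusted p = 0.00372). The rises of Rps29 and Rpl24 were 0.44 and 0.41 (adjusted p = 0.0176 and 0.0471), and leaving out 1 array ended the call of Rpl24 for 9 of the 12 arrays and that of Rps29 for 3. Rpl21 was called here (adjusted p = 0.0429) and lost its call whichever of the 12 arrays was left out. Rps2, Rps15 and Rpl10 were the uncalled genes with the smallest p, at adjusted p = 0.0514, 0.0552 and 0.0592, with log2 fold changes of 0.19, 0.18 and 0.20. In the limma fit over 23406 probe sets, all sets of these genes were called higher. There the brightest sets had adjusted p = 0.0317, 0.0339 and 0.0386. The share of all probe sets called in that fit is not given here.

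Between the 2 control genotypes no member was called. In Mut+/- over Mut+/+ kidneys limma called 0 of 63 higher and 0 lower, where 0.0652% of all genes were higher and 0.0702% lower. At an unadjusted p under 0.05, 17 members were higher, where 4.5% of all genes were, and 1 was lower, Rps27l, where 6.81% were. The median log2 fold change was 0.09 against 0.0065 over all genes, and 49 of 63 values lay above 0 (53% of all genes). Groups were apart and Mut+/- higher for 7 members (3.18% of all genes), which were Rpsa, Rps2, Rps3, Rps9, Rps12, Rps14 and Rps18. All 7 are small subunit genes, named here after their values were seen. Groups were apart and Mut+/- lower for 2 members, where 1049 of all 19934 genes were. The smallest adjusted p belonged to Rps12, whose log2 fold change was 0.37 (95% interval 0.21 to 0.54, adjusted p = 0.0912). Rps9 and Rpl24 followed, at 0.20 and 0.31 (adjusted p = 0.230 and 0.264).

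Taking the 3 genotypes in order, 48 of 63 genes (76.2%) had means highest in Mut-/-, intermediate in Mut+/- and lowest in Mut+/+. Of all genes, 22.5% had this order. The place of Mut-/- restates the rise given above, since 61 of 63 members were above 0 over each other genotype. In Mut+/- over Mut+/+, 49 of 63 were above 0 (53% of all genes). Members share arrays and are not independent, and a graded effect of genotype was not tested. Rpl36a, Rpl38, Rpl9 and Rps25 are among those that broke this order, with Mut+/- at or below Mut+/+ at log2 fold changes of -0.01, -0.04, -0.07 and -0.03. Changes of at least 1.25-fold that also passed the test were found in 35 members over Mut+/+ (1.41% of all genes) and 32 over Mut+/- (0.783% of all genes).

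**Figure D5:**
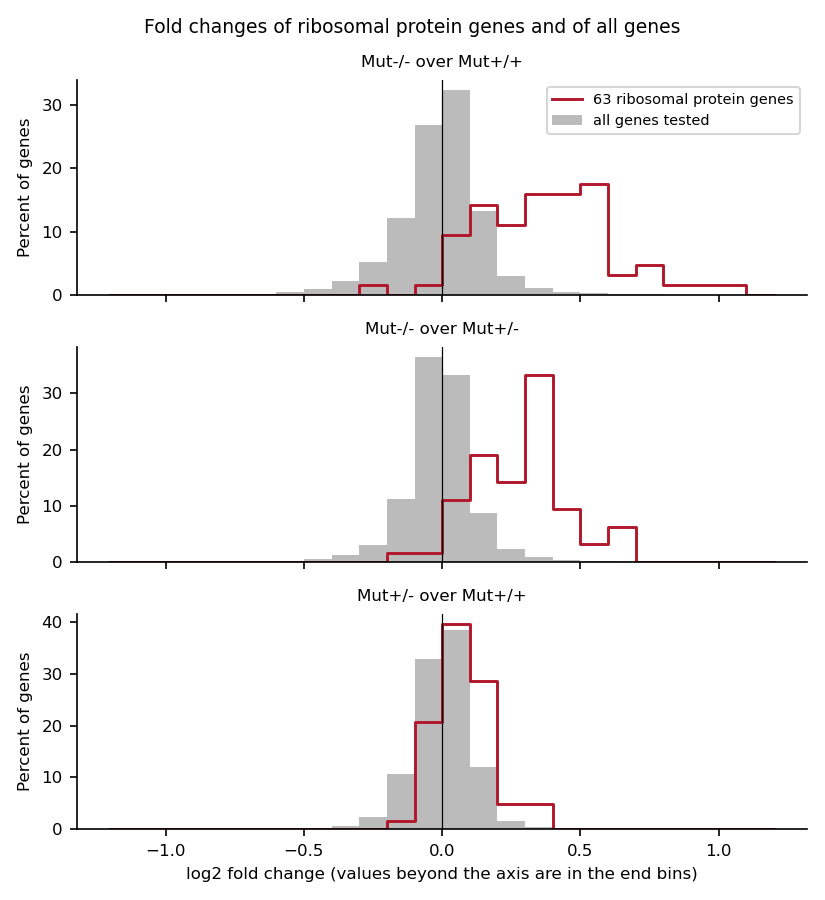
Percent of genes by log2 fold change in steps of 0.1, for the 63 ribosomal protein genes (red line) and all 19934 genes tested (grey), in the 3 comparisons. The red line has medians of 0.37 and 0.32 in the upper panels, where Mut-/- is compared with Mut+/+ and Mut+/-, and 0.09 in the lowest, where Mut+/- is compared with Mut+/+.

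The probe sets of a gene were compared next. The members had 219 probe sets with their symbol alone. In a fit over 23406 probe sets, 189 of these were called higher in Mut-/- than in Mut+/+ kidneys and 0 lower. The share of all probe sets called in that fit is not given here. In the fit over genes, 2.96% of all genes were higher and 6.69% lower. Some sets of a gene hold identical values on every array, as the 3 of Rpl41 do, and counted once they left 207 sets, of which 179 were called higher and 0 lower. In all 38 genes with several distinct sets these lay on the same side of 0, with a median spread of 0.05 and a widest of 0.23, in Rps15. Sets of 1 gene may share sequence and are not independent. Ribosomal protein genes have many processed pseudogenes, and whether probes also read them was not tested.

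Neighbouring pathways were counted in the same fit. Fau, the source of the small subunit protein RPS30, had 12.44, 12.43, 12.47 and 12.36 in Mut-/- kidneys, 12.25, 12.22, 12.23 and 12.26 in Mut+/- kidneys, and 12.21, 12.28, 12.20 and 12.15 in Mut+/+ kidneys. Its Mut-/- arrays were above the rest, 1.16-fold over Mut+/+ (adjusted p = 0.00977). Of 77 mitochondrial ribosomal protein genes, 4 were higher and 6 lower in Mut-/- than in Mut+/+ kidneys, with a median of -0.0028, where 2.96% of all genes were higher and 6.69% lower. Against Mut+/- kidneys 1 was higher and 0 were lower, where 1.07% and 1.46% of all genes were. Of 50 ribosome assembly factors, 2 were higher and 2 lower than in Mut+/+, with a median of 0.01. Both counts lie near those shares. The assembly factors called higher were Ncl (nucleolin, which acts in rRNA synthesis), at 10.74 ± 0.03 in Mut-/- and 10.51 ± 0.10 in Mut+/+ kidneys (adjusted p = 0.0472), and Pes1, which processes large subunit rRNA, at 8.80 ± 0.08 in Mut-/- and 8.54 ± 0.10 in Mut+/+ kidneys (adjusted p = 0.0165). Taf1d, a subunit of the RNA polymerase I selectivity factor, fell to 9.95 ± 0.13 in Mut-/- against 10.39 ± 0.04 in Mut+/+ kidneys (SD, n = 4, adjusted p = 0.00249).

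Of 22 measured genes of the mTORC1 pathway and its cap binding repressors, 1 was higher and 5 lower in Mut-/- than in Mut+/+ kidneys, with a median of -0.09, beside the same shares of all genes. Eif4ebp1, the repressor of cap-dependent translation that mTORC1 inactivates, had 9.28, 9.10, 9.45 and 9.21 in Mut-/- kidneys, 8.80, 8.88, 8.85 and 8.78 in Mut+/- kidneys, and 8.97, 8.92, 8.90 and 8.95 in Mut+/+ kidneys. Its Mut-/- arrays were above all others, 1.25-fold over Mut+/+ (adjusted p = 0.00745) and with a log2 fold change of 0.44 over Mut+/- (adjusted p = 0.00372). Rragd, a Rag GTPase that brings mTORC1 to the lysosome, was lower at 8.75 ± 0.15 in Mut-/- against 9.17 ± 0.11 in Mut+/+ kidneys (adjusted p = 0.00841). The arginine sensor Castor1 was lower as well, at 7.53 ± 0.07 in Mut-/- and 7.80 ± 0.15 in Mut+/+ kidneys (adjusted p = 0.0250).

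Markers of kidney cell types were counted beside 2.96% of all genes called higher and 6.69% called lower. In Mut-/- over Mut+/+ kidneys, podocyte markers were lower in 2 of 2, distal tubule markers in 2 of 2, endothelial markers in 2 of 3 and proximal tubule markers in 1 of 6. Of the 2 thick ascending limb markers limma called 0 in either direction, and 0 had an unadjusted p under 0.05. A collecting duct marker was higher in 1 of 3, and macrophage markers were split, with 1 higher and 1 lower of 4. The mean of the proximal tubule list was 12.13, 12.07, 11.70 and 12.13 on the Mut-/- arrays, the low value being that of replicate 3. It ran from 12.01 to 12.14 in Mut+/- and from 11.98 to 12.10 in Mut+/+ kidneys. The podocyte list ran from 9.04 to 9.22 in Mut-/-, from 9.36 to 9.47 in Mut+/- and from 9.42 to 9.49 in Mut+/+ kidneys. For T cell, B cell, fibroblast and cycling cell markers limma called 0 of 12 either way, with 1 fibroblast marker higher and 1 lower at an unadjusted p under 0.05. The B cell list ran from 5.87 to 6.71 in Mut-/-, from 5.81 to 7.16 in Mut+/- and from 5.70 to 5.95 in Mut+/+ kidneys. The part of these shifts in the ribosomal protein values was not tested.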

How the data were processed

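Log2 signals of 12 Affymetrix arrays were deposited by the authors. Per the submitters' processing notes they come from RMA in Expression Console 1.2.1. The descriptions name a mouse gene array while the labelling text names a human one, and the probe sets carried mouse symbols. Gene symbols were taken from the platform annotation, and all 63 members matched RefSeq by Entrez identifier. Groups came from the titles. All 3 groups were fitted together with limma 3.58.1 in R 4.3.3 (lmFit and eBayes, 9 residual degrees of freedom), with p adjusted by Benjamini-Hochberg over 19934 genes per comparison. Nothing says more of the replicates than 1 array per mouse, and 4 arrays a group limit the precision. The members and lists were chosen with earlier results of these data known. Named genes are, per comparison, up to 12 called members each way and the 3 uncalled ones with the smallest p, the 3 brightest and 3 dimmest, the paralogues, the P stalk, Rpl5, Rps6 and Rpsa, and up to 3 called genes of each other list. Other genes are named through the role groups or after their values were seen. Same-numbered arrays did not deviate together (12 pairs, correlations from -0.239 to 0.168, 1 over 0.1), so numbers were not taken as pairs. Sequences are from RefSeq GRCm38.p6. Plots used matplotlib 3.10.9 and Python 3.11.15.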

Additional observations from a re-analysis of the deposited data

Results flagged for a closer look

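In 3 of 102 groups of 4 arrays tested among the named members, 1 array stood apart by Dixon's criterion, which chance passes in about 1 of 20. Rpl7 was 9.67 on Mut+/- replicate 2, against 9.83 to 9.84 on the other Mut+/- arrays. Rpl28 was 12.40 on the same array, against 12.50 to 12.51. Rpl39l was 4.72 on Mut-/- replicate 3, against 4.60 to 4.61 on the other Mut-/- arrays.

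Probe sets that carry several symbols, 1 of them a ribosomal protein, were outside the naming rule and held 239 sets. Of these, 221 were called higher in Mut-/- than in Mut+/+ kidneys and 0 lower, with a median log2 fold change of 0.36. Sets with identical values counted once left 234, of which 216 were called higher. These calls are from the fit over 23406 probe sets, and the share of all probe sets called there is not given here. In the fit over genes, 2.96% of all genes were higher and 6.69% lower. Which gene of such a set gives the signal cannot be told apart.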

How the results depend on the processing

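Leaving out each array in turn gave 44 to 46 members higher in Mut-/- than in Mut+/+ kidneys, 31 to 42 higher than in Mut+/- kidneys, and 0 called either way in Mut+/- over Mut+/+. The count of 31 came without Mut+/- replicate 2, 3 or 4. Of the 45 calls over Mut+/+, 44 held without any single array, as did 30 of the 41 over Mut+/-. With the replicate number as a block, which does not pair the arrays, the counts were 45 and 39. Quantile normalization gave 45 and 36, and fitting only the groups compared gave 44 and 33. Array weights called 1 member higher in Mut+/- than in Mut+/+ kidneys, Rps12 (adjusted p = 0.0258), where the adjusted p ranged up to 0.306 over the other settings. The difference between the large and small subunit medians, -0.13, was -0.11 with a group mean of at least 6, -0.16 after quantile normalization, and from -0.14 to -0.11 with single arrays left out, and the cause was not tested. Restricting the genes to the 54 ordinary ones, an alternative chosen after seeing the data, moved the medians to 0.43 and 0.35. The genes dropped were not called in either comparison, so the counts of 45 and 41 could not change. Among the named members no called direction reversed in the settings run. Counting each gene, comparison and setting as 1 value, 1716 stayed the same, 29 lost a call and 16 gained one. The lost calls were those of Rpl24, Rps29 and Rpl21 in Mut-/- over Mut+/-, and 0 named members lost a call in Mut-/- over Mut+/+. Uncalled values near 0, such as that of Rpl3l, changed sign in some settings.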

Other observations

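Ribosomal protein symbols seen only in probe sets shared with another symbol numbered 20. Rpl37 and Rpl37rt, and likewise Rps27 and Rps27rt, have the same brightest set, so the 20 symbols were read by 18 sets. Of these 18 sets, 16 were called higher in Mut-/- than in Mut+/+ kidneys and 0 lower, with a median log2 fold change of 0.36. For this count too, the share of all probe sets called is not given. In the fit over genes, 2.96% of all genes were higher and 6.69% lower. Rps24 led at 0.65, followed by the shared sets of Rps27 with Rps27rt at 0.59, Rps23 at 0.57 and Rps26 at 0.55. Rpl11, the partner of Rpl5 in the 5S particle, shares its set with Brf2 and stood at 0.49 (adjusted p = 0.000171). The 2 symbols not called were Rpl22l1 at 0.20 (adjusted p = 0.0621), a paralogue by name, and Rpl39, a protein of the exit tunnel, at -0.01 (adjusted p = 0.926). These genes were named after their values were seen.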
